A study of Arabidopsis thaliana with 3 samples.

Results

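The aquaporins of Arabidopsis thaliana are a family of 35 genes, chosen here by their AGI locus identifiers from the 27416 genes of each file: 13 PIP, 10 TIP, 9 NIP and 3 SIP genes. The plants were wild-type Arabidopsis of the Col-0 background, harvested whole at 3 weeks after growth on MS plates in long days (16 h light, 8 h dark). RNA of 1 group was measured in 3 libraries, which carry the replicate numbers 4, 5 and 6. The series as a whole is titled for N6-adenine methylation of DNA. As no other group is analysed here, the data give the level of each aquaporin and its spread between libraries. The sources used here do not say whether the libraries came from separate plants or pools, so the spread may be partly technical. Gene names are written with a hyphen, as in protein databases, so that PIP1-2 is the gene also written with a semicolon between its numbers.

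Aquaporins are small membrane proteins that form a narrow pore through which water, and in some members other small uncharged molecules, cross the membrane along a gradient. The plasma membrane intrinsic proteins (PIP) and the tonoplast intrinsic proteins (TIP, of the vacuole membrane) set much of the water permeability of plant cells. The NOD26-like intrinsic proteins (NIP) are known for the passage of boric acid, arsenite and other solutes, and the small basic intrinsic proteins (SIP) lie in the endoplasmic reticulum. The pore is lined by a pair of short boxes of asparagine, proline and alanine, called NPA boxes.

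The codons of these boxes differ between the subfamilies, and they are shown here for members at high and low level because they encode the part of the protein that lines the pore. Sequences are from the RefSeq genome TAIR10.1, given 5′ to 3′ on the coding strand, with the 9 bases of the box in capitals, and all lie in coding exons. Codons of the form GCN stand for alanine. The first boxes of 6 members follow.
TIP1-2 (chr3:9723425-9723463, minus strand): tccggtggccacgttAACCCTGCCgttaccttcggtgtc
PIP1-2 (chr2:18911003-18911037, plus strand): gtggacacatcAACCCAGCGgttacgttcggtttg
PIP2-1 (chr3:19804645-19804679, minus strand): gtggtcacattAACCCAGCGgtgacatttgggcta
NIP6-1 (chr1:30351482-30351520, minus strand): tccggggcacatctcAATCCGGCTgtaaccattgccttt
NIP5-1 (chr4:6432354-6432392, minus strand): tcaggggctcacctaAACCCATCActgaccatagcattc
SIP1-1 (chr3:1073801-1073839, minus strand): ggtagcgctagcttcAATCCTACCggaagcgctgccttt
The second boxes of the same members follow.
TIP1-2 (chr3:9722911-9722949, minus strand): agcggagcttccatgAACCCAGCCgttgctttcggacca
PIP1-2 (chr2:18911442-18911480, plus strand): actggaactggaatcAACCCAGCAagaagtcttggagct
PIP2-1 (chr3:19804155-19804193, minus strand): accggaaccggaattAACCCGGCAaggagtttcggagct
NIP6-1 (chr1:30350787-30350825, minus strand): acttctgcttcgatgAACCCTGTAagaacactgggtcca
NIP5-1 (chr4:6431680-6431718, minus strand): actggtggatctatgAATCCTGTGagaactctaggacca
SIP1-1 (chr3:1072706-1072732, minus strand): actggaccagccatgAATCCTGCCatt

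Among all 35 members, 27 had a GCN codon at the end of both boxes, including 13 of 13 PIP, 10 of 10 TIP and 4 of 9 NIP genes. None of the 3 SIP genes did, as each of them has another codon at the end of the first box. The other NIP genes were NIP1-1 and NIP1-2 (GGA in the second box), NIP5-1 (TCA and GTG), NIP6-1 (GTA in the second box) and NIP7-1 (TCC in the first box). An in-frame box of AAC or AAT, then CCN, then GCN occurred at least once in 4.56% of 26670 nuclear coding sequences, and a pair of them 100 to 130 codons apart in 0.127%, which is 34 genes, 27 of them aquaporins. An arginine codon followed the second box in 28 members, as in PIP1-2, PIP2-1, NIP5-1 and NIP6-1 above. It was lacking in TIP1-1, TIP1-2, TIP1-3, TIP5-1 and the 3 SIP genes. Gene structure was uniform in the PIP genes, which all had 4 coding exons and coding lengths of 837 to 987 bp. TIP genes had 1 to 3 coding exons and 750 to 807 bp, NIP genes 4 or 5 exons and 828 to 972 bp, and SIP genes 3 or 4 exons and 723 to 783 bp.

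The 3 libraries held 19921241, 19905762 and 19892527 reads in replicates 4, 5 and 6, as recovered from the deposited values. Levels are FPKM, fragments relative to gene model length and library total, though the headers name no unit and RPKM is equally possible. The leaf markers RBCS1A and LHCB1.3 were very high, at 10940 ± 89.8 and 13520 ± 137 FPKM. Root markers were far lower. Of 6, 3 were above 1 FPKM in each library, the endodermal genes SCR (14.6 ± 0.0656 FPKM), CASP1 (4.27 ± 0.733 FPKM) and CASP2 (3.08 ± 0.489 FPKM). The 6 together summed to 21.3 to 22.8 FPKM, most of it from SCR. The root hair genes COBL9, EXPA7 and PRP3 averaged 0.0701, 0.0162 and 0.186 FPKM. In bulk seedlings, fewer cells of a type and less RNA per cell cannot be told apart.

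Most aquaporins were expressed, as were most nuclear genes, and a few aquaporins stood at very high levels. Of the 35 members 25 (71.4%) were called detected, with at least 1 FPKM in each library, against 63.0% of 27197 nuclear protein-coding genes. The mean was at least 100 FPKM in 11 members (31.4%), against 4.28% of nuclear genes. In every library 2 members (5.71%) stood at 0, against 18.2% of nuclear genes. The median over the 35 members lay 0.62 above the median nuclear gene on the log2(FPKM + 1) scale, 0.48 to 0.76 in single libraries. The gene in the middle of the order, NIP1-2, averaged 7.80 FPKM, while 10 members were not detected. Together the members summed to 5852 ± 27.6 FPKM (SD, n = 3), which was 0.799 ± 0.00438% of all FPKM in a library.

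**Figure D1:**
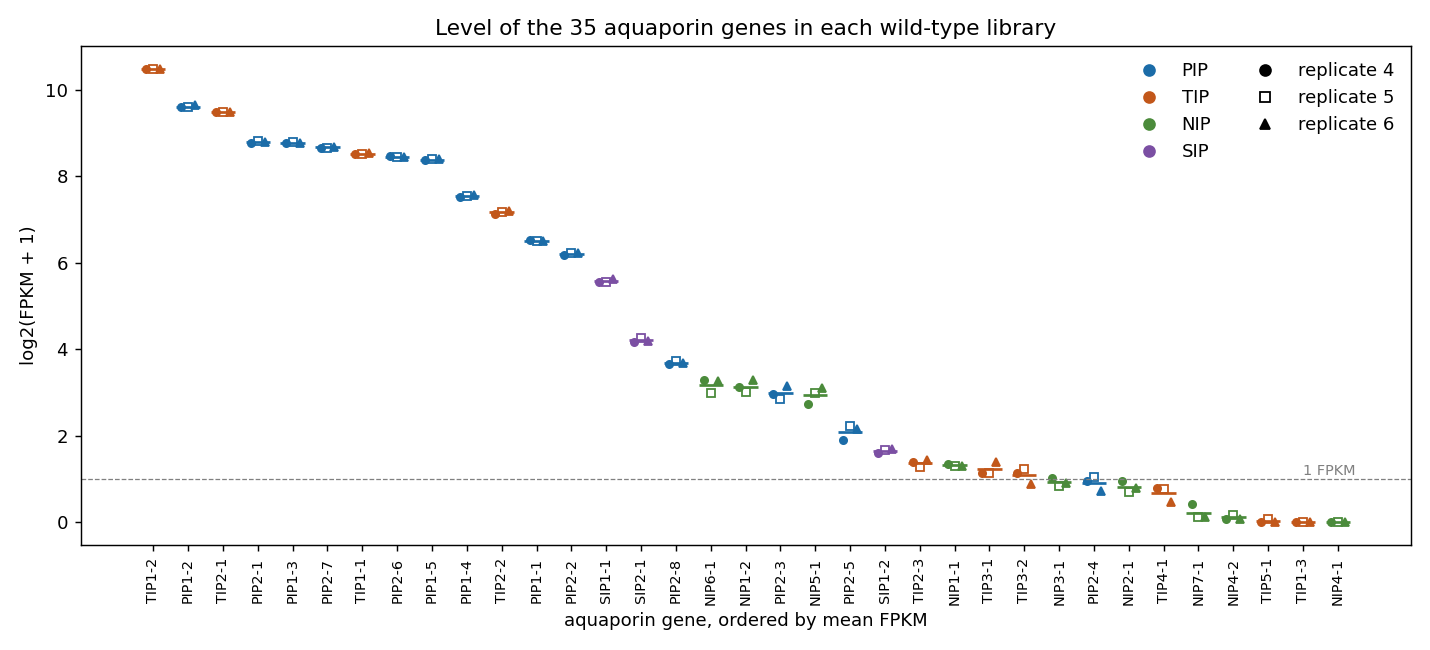
Level of each of the 35 aquaporin genes as log2(FPKM + 1), ordered by mean FPKM. Points are the 3 wild-type libraries, horizontal bars their mean, colours the subfamilies, and the dashed line marks 1 FPKM. TIP1-2 leads at 1424 FPKM, and 11 genes stand at 100 FPKM or more.

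The subfamilies differed in level. Detected were 92.3% of PIP, 60.0% of TIP, 44.4% of NIP and 100% of SIP genes, against 63.0% of nuclear genes. PIP genes had the highest median, 184 FPKM, which was above 97.9% of nuclear genes and 5.03 log2 units above that of the background (4.99 to 5.05 by library). SIP genes had a median of 17.5 FPKM, 1.70 above the background (1.66 to 1.74). TIP genes had a median of 1.46 FPKM, a log2 difference of -1.21 (-1.27 to -1.09), although 4 of the 10 were above 100 FPKM. The sign depends on the summary: the mean over TIP members was above that of the background, by 1.44, and the median over those at 1 FPKM or more was above it by 3.40. NIP genes had a median of 0.896 FPKM, a log2 difference of -1.59 (-1.69 to -1.49), and none reached 100 FPKM.

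**Figure D2:**
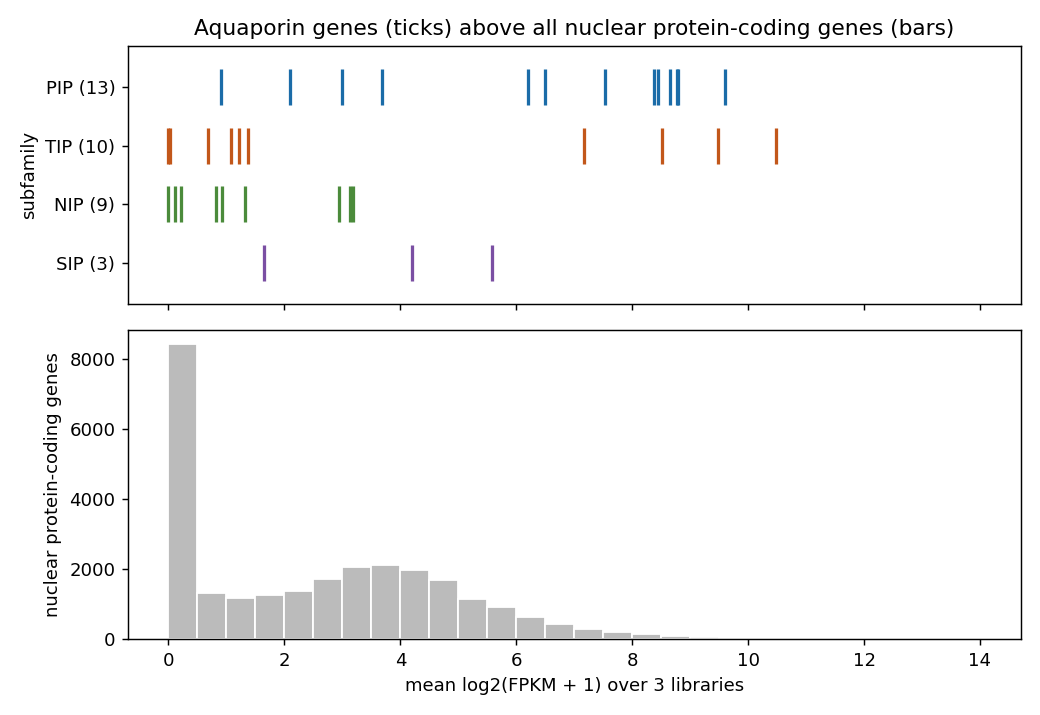
Upper panel, the mean log2(FPKM + 1) of each aquaporin, by subfamily, with the number of genes in brackets. Lower panel, the same measure for 27197 nuclear protein-coding genes as a histogram. TIP genes fall into a high set at 142 FPKM or more and a low set at 1.59 FPKM or less, with no gene between.

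Summed FPKM came almost wholly from PIP and TIP genes. TIP genes held 45.3 ± 0.176% of the aquaporin sum, PIP1 genes 31.1 ± 0.201% and PIP2 genes 22.0 ± 0.0772% (SD, n = 3). SIP genes held 1.13 ± 0.0202% and NIP genes 0.445 ± 0.0357%. TIP1-2 alone held 24.3 ± 0.203%, the top 5 genes 64.8 ± 0.124% and the top 10 genes 92.8 ± 0.114%. PIP genes summed to 3108 ± 21.2 FPKM and TIP genes to 2651 ± 8.66 FPKM, a log2 ratio of 0.23 ± 0.0091 that was above 0 in 3 of 3 libraries. PIP2 genes summed to 1288 ± 5.48 FPKM and PIP1 genes to 1820 ± 18.9 FPKM, a log2 ratio of -0.50 ± 0.0142, below 0 in 3 of 3 libraries. For these and all other ratios no p is given, as the smallest that 3 libraries allow in an exact sign-flip test (two-sided) is 0.25.

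**Figure D3:**
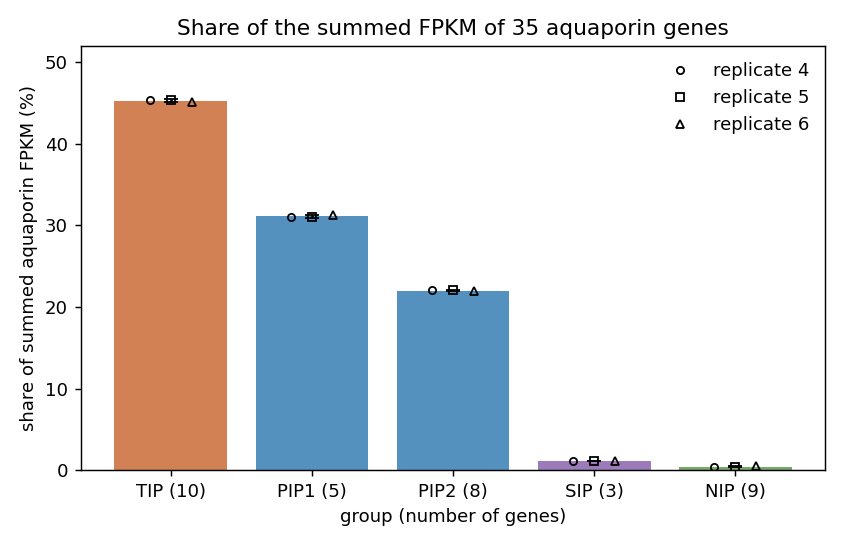
Share of the summed FPKM of the 35 aquaporins held by each group, with the number of genes in brackets. Bars are means over 3 libraries, error bars the SD (n = 3), and points the libraries. TIP genes hold 45.3%, PIP1 genes 31.1% and PIP2 genes 22.0%.

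PIP1 proteins reach the plasma membrane mainly together with PIP2 proteins. All 5 PIP1 genes were detected, and 4 stood above 100 FPKM. PIP1-2 (AT2G45960), studied for water and CO2 permeability of leaves and roots, ranked 98 among nuclear genes and had 769, 768 and 793 FPKM in replicates 4, 5 and 6. PIP1-3 (AT1G01620) had 434, 440 and 436 FPKM. PIP1-5 (AT4G23400) had 329, 334 and 335 FPKM.
PIP1-4 (AT4G00430), which is known to rise in drought while most PIP genes fall, was lower, at 181, 185 and 187 FPKM. PIP1-1 (AT3G61430) was the lowest of the group, at 90.3, 89.3 and 89.4 FPKM. The library ranges of these 5 genes did not overlap. PIP1-1 and PIP1-2 share 87.6% of their coding bases and differed by a log2 ratio of -3.10 ± 0.0294, below 0 in 3 of 3 libraries. PIP1-3 exceeded PIP1-4, of 85.3% coding identity, by 1.24 ± 0.0222.

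PIP2 proteins are the more active water channels of the plasma membrane when tested alone in frog oocytes. Of 8 PIP2 genes 7 were detected, and their levels ran from 440 down to 0.880 FPKM. PIP2-1 (AT3G53420), a channel for water and hydrogen peroxide with a known part in stomatal closure, had 436, 446 and 439 FPKM. PIP2-7 (AT4G35100), whose delivery to the membrane involves the syntaxins SYP61 and SYP121, had 402, 403 and 406 FPKM. PIP2-6 (AT2G39010), which is known from leaf veins, had 352, 348 and 345 FPKM.
These 3 genes kept apart from each other in every library, whereas PIP2-1 and PIP1-3 overlapped. PIP2-2 (AT2G37170), which contributes to water uptake of roots, had 70.8, 73.1 and 73.6 FPKM. PIP2-8 (AT2G16850) had 11.5, 12.1 and 11.9 FPKM, and PIP2-3 (AT2G37180, also RD28, first found as a gene that responds to desiccation) had 6.83, 6.22 and 7.85 FPKM. PIP2-5 (AT3G54820), another gene known to rise in drought, had 2.74, 3.68 and 3.44 FPKM.
PIP2-4 (AT5G60660), known mainly from roots, was the only PIP gene that was not detected, with 0.923, 1.06 and 0.660 FPKM from 60 reads in all.

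Close PIP2 relatives stood far apart. PIP2-7 exceeded PIP2-8, with 84.6% coding identity, by 4.98 ± 0.0324 on the log2 scale. PIP2-5 was below PIP2-6, of 76.5% identity, with a log2 ratio of -6.36 ± 0.181. PIP2-1 exceeded PIP2-2, of 86.1% identity, by 2.59 ± 0.0238. Each ratio had the same sign in 3 of 3 libraries.

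PIP2-2 and PIP2-3 are the most alike of all members, with 94.8% coding identity, and lie next to each other on chromosome 2, on opposite strands, 2612 bp apart. PIP2-2 had 72.5 ± 1.48 FPKM and PIP2-3 6.96 ± 0.821 FPKM, a 10.5 ± 1.19-fold difference in FPKM and a ratio of 3.21 ± 0.142 on the log2(FPKM + 1) scale, above 0 in 3 of 3 libraries. Reads can tell them apart only where their bases differ. The stretch of 48 coding bases in which they differ most is shown, with the 9 differing bases in capitals.
PIP2-2 (chr2:15614219-15614266, minus strand): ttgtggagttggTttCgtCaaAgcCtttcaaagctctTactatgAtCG
PIP2-3 (chr2:15618304-15618351, plus strand): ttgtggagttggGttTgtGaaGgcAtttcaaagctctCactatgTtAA
Of the 50-base words in the longest transcript, 19.6% of those of PIP2-2 also occur in PIP2-3 and 21.7% of those of PIP2-3 occur in PIP2-2. No source used here says how reads with several matches were counted, and the division of reads within this pair is uncertain. The other PIP genes shared no 50-base word with transcripts of another nuclear gene.

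**Figure D4:**
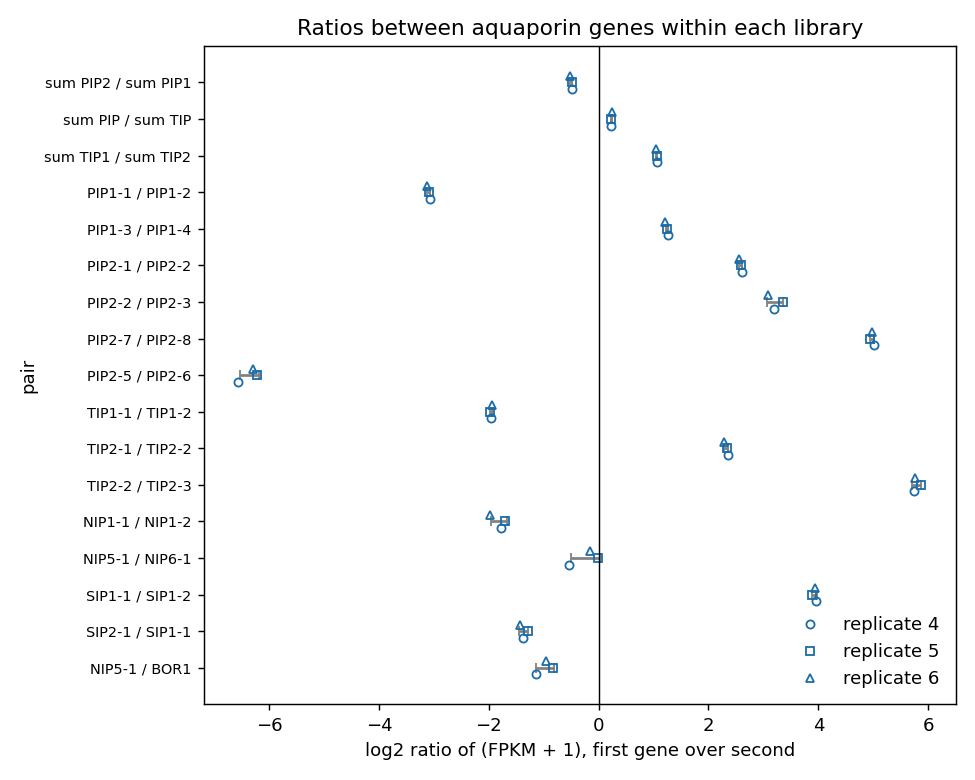
Log2 ratio of (FPKM + 1), first gene over second, for 17 pairs of aquaporin genes or sums, BOR1 included. Points are the 3 libraries and grey bars the mean ± SD (n = 3). TIP2-2 over TIP2-3 is highest at 5.79, PIP2-5 over PIP2-6 lowest at -6.36, while PIP over TIP sums (0.23) and NIP5-1 over NIP6-1 (-0.24) lie closest to 0.

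TIP genes were either very high or near the limit of detection. TIP1-2 (AT3G26520) and TIP1-1 (AT2G36830) are the gamma-TIPs, water channels of the large vacuole in vegetative tissue. TIP1-2 was the highest aquaporin and ranked 45 among nuclear genes, at 1423, 1432 and 1415 FPKM. TIP1-1 had 364, 365 and 368 FPKM. Their coding identity is 81.5%, and the log2 ratio of TIP1-1 over TIP1-2 was -1.96 ± 0.0149, below 0 in 3 of 3 libraries. TIP2-1 (AT3G16240), a delta-TIP known to pass water and ammonia, ranked 110 among nuclear genes at 713, 717 and 716 FPKM.
TIP2-2 (AT4G17340) had 139, 142 and 146 FPKM, lowest in replicate 4 and highest in replicate 6. TIP2-3 (AT5G47450), another ammonia channel, was far below it at 1.62, 1.43 and 1.72 FPKM, from 100 reads in all. TIP2-2 exceeded TIP2-3, of 81.5% coding identity, by 5.79 ± 0.0756 on the log2(FPKM + 1) scale. The pseudocount bears on this value, since the ratio of FPKM itself was 89.8 ± 7.97 and a pseudocount of 0.1 gave 6.40. TIP2-1 exceeded TIP2-2, of 70.7% identity, by 2.32 ± 0.0348. The TIP1 sum, 1789 ± 7.30 FPKM, exceeded the TIP2 sum, 859 ± 5.32 FPKM, by 1.06 ± 0.0112. All these signs held in 3 of 3 libraries.

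The other 5 TIP genes were as low as TIP2-3 or lower. TIP3-1 (AT1G73190) and TIP3-2 (AT1G17810) are the alpha-TIP and beta-TIP, which belong to the protein storage vacuoles of seeds. TIP3-1 had 1.19, 1.19 and 1.62 FPKM and was detected. TIP3-2 had 1.198, 1.33 and 0.857 FPKM and was below 1 FPKM in replicate 6. Their libraries overlapped. Of 5 seed markers the oil-body gene OLEO2 alone was detected, at 2.48, 2.71 and 1.44 FPKM, and the storage protein genes CRU3 and SESA1 were at 0 in all libraries. The 5 summed to 2.65, 3.14 and 1.56 FPKM, nearly all from OLEO2, and were lowest in replicate 6, where TIP3-2 was lowest and TIP3-1 highest. Each TIP3 gene overlaps a coding gene on the opposite strand, AT1G73200 (15.03, 14.3 and 15.2 FPKM) beside TIP3-1 and AT1G17820 (6.43, 7.25 and 6.57 FPKM) beside TIP3-2. TIP3-2 also overlaps an antisense RNA, AT1G05333, by 564 bp. For TIP3-1, 21.3% of 50-base words in the longest transcript also occur in AT1G73200. For TIP3-2, 40.5% of them occur in AT1G05333 or AT1G17820. The levels of both TIP3 genes are thus uncertain, the call of TIP3-1 as detected included. The part of these overlapping genes in the TIP3 values was not tested.

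TIP4-1 (AT2G25810), known mainly from roots, had 0.732, 0.689 and 0.388 FPKM from 42 reads. TIP1-3 (AT4G01470) and TIP5-1 (AT3G47440) are known from pollen. TIP1-3 had no reads. In a single library, a count of 0 leaves room for a level of up to 0.199 FPKM (3 reads over its coding length, counting error only). TIP5-1 had 1 read, in replicate 5. None of 5 pollen markers was detected, VGD1 and HTR10 had no reads, and the 5 summed to 0.647, 1.004 and 0.987 FPKM. The part of pollen, seed or root tissue in the levels of TIP and NIP genes was not tested.

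NIP genes had the lowest median of the subfamilies, and 4 of 9 were detected, against 63.0% of nuclear genes. The 3 highest, NIP6-1, NIP1-2 and NIP5-1, stood above the median nuclear gene (4.71 FPKM). NIP6-1 (AT1G80760), a boric acid channel that serves young shoot tissue, had 8.70, 6.96 and 8.67 FPKM. NIP1-2 (AT4G18910), known for the uptake of aluminium malate, had 7.70, 7.01 and 8.68 FPKM. NIP5-1 (AT4G10380), the boric acid channel of root uptake, had 5.68, 6.90 and 7.63 FPKM. The libraries of these 3 genes and of PIP2-3 overlapped from one to the next in the order of levels.
NIP5-1 and NIP6-1 differed by a log2 ratio of -0.24 ± 0.272, less than the spread between libraries. It was below 0 in 3 of 3 libraries, at -0.539, -0.011 and -0.163 in replicates 4, 5 and 6. With FPKM multiplied by the longest annotated transcript length, 2170 and 1212 bp, the ratio turned to 0.53. The lengths implied by the values were 1521 and 1212 bp, so 0.53 is not a ratio of reads. Reads in all were 612 for NIP5-1 and 587 for NIP6-1. Both genes have boxes that depart from the alanine form shown above. NIP1-1 (AT4G19030), known to admit arsenite and antimonite, had 1.54, 1.46 and 1.46 FPKM. It was below NIP1-2, its close relative of 85.0% coding identity, with a log2 ratio of -1.82 ± 0.141 in 3 of 3 libraries.

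The other 5 NIP genes were not detected. NIP3-1 (AT1G31885), which can pass arsenite, had 1.03, 0.775 and 0.879 FPKM and NIP2-1 (AT2G34390), which is known to rise in low oxygen, had 0.942, 0.629 and 0.719 FPKM. For NIP2-1, 77.1% of 50-base words also occur in other loci, among them an antisense RNA that overlaps it by 1432 bp, and its level is uncertain. NIP7-1 (AT3G06100), known from anthers, had 0.334, 0.0835 and 0.0835 FPKM, highest in replicate 4.
NIP4-1 (AT5G37810) and NIP4-2 (AT5G37820), known from pollen, are neighbours on chromosome 5, 1989 bp apart on the same strand, with 88.0% coding identity. NIP4-2 had 1, 2 and 1 reads, and NIP4-1 had none, for which the same limit is 0.177 FPKM. No ratio is given for this pair.

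All 3 SIP genes were detected. SIP1-1 (AT3G04090) had 46.0, 45.7 and 48.5 FPKM. SIP2-1 (AT3G56950) had 17.1, 18.2 and 17.2 FPKM, and SIP1-2 (AT5G18290) had 2.02, 2.16 and 2.21 FPKM. SIP1-1 exceeded SIP1-2, of 75% coding identity, by 3.93 ± 0.0404 on the log2 scale, and SIP2-1 was below SIP1-1 with -1.37 ± 0.0789, each in 3 of 3 libraries. SIP1-2 overlaps the transcription factor gene NAC088 on the opposite strand by 444 bp of gene span, and NAC088 stood at 1.70, 2.15 and 2.15 FPKM. No 50-base word in the longest transcript of SIP1-2 occurred in transcripts of another nuclear gene, NAC088 included. SIP2-1 overlaps CRD1, an enzyme gene of chlorophyll synthesis at 283, 281 and 287 FPKM, by 147 bp. Of the 50-base words of SIP2-1, 2.9% also occurred in CRD1. The part of NAC088 and CRD1 in the SIP values was not tested. In all, 8 members have an overlapping gene on the opposite strand in the annotation, and none has one on the same strand. No share over all nuclear genes stands beside this count, so it does not compare members with other genes.

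Genes alike in sequence often differed in level. Of 35 members 26 differed from the member of highest coding identity by more than 1 on the log2(FPKM + 1) scale, a doubling. That closest member was not always alike: identity was 45.3% for SIP2-1 and 61.5% for TIP4-1, both among the 26. Among 15 pairs with 80% coding identity or more, NIP4-1 with NIP4-2 set aside for want of reads, 13 differed by more than 1, and the median difference was 2.07. These pairs share members and are a description. The other 2 were PIP1-4 with PIP1-5 (0.85) and PIP1-2 with PIP1-3 (0.83). No share over all pairs of members stands beside these counts, so they do not compare alike genes with others.

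The order of levels was stable at the top and not at the bottom. Of 34 neighbouring pairs in that order, 14 had library ranges that overlapped. Among the 17 highest genes only PIP2-1 and PIP1-3 overlapped. From TIP2-3 down to TIP4-1, at 1.59 to 0.603 FPKM, each gene overlapped the next.

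The spread between libraries was small. Among the 26 members that averaged at least 1 FPKM, the median SD of log2(FPKM + 1) was 0.0321, against 0.0621 over 17483 nuclear genes in that range. Without replicate 4 the members' value was 0.0184. The SD falls with level, from a median of 0.133 for nuclear genes in the lowest step of 0.5 log2 units shown to 0.0155 in the highest, and the members stand higher than the background. Over 11 members at 100 FPKM or more it was 0.0138, against 0.0236 over 1165 genes. TIP2-1 had the lowest SD of these 26, 0.0043, and NIP5-1 the highest, 0.189. Whole reads could be assigned to 1 gene length in 28 members with 30 reads or more. The variance of reads was above 3.00 times the mean, the 95% point of counting noise alone, in 2 of them, against 12.9% of 17660 nuclear genes. By reads summed over the 3 libraries, the median ratio of variance to mean was 2.22 for 6 members and 1.001 for nuclear genes at 300 to 3000 reads. It was 0.904 for 10 members and 0.926 for nuclear genes at 30 to 300 reads, 0.691 for 8 members and 1.11 for nuclear genes at 3000 to 30000 reads, and 0.913 for 4 members and 2.17 for nuclear genes above that. Members thus lay above nuclear genes in 1 range and below them in 3. The members above 3.00 times the mean were PIP1-2, with 20326, 20273 and 20906 reads and a ratio of 6.43, and NIP5-1, with 172, 209 and 231 reads and a ratio of 4.40. PIP1-2 was high in replicate 6, and NIP5-1 was low in replicate 4.

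**Figure D5:**
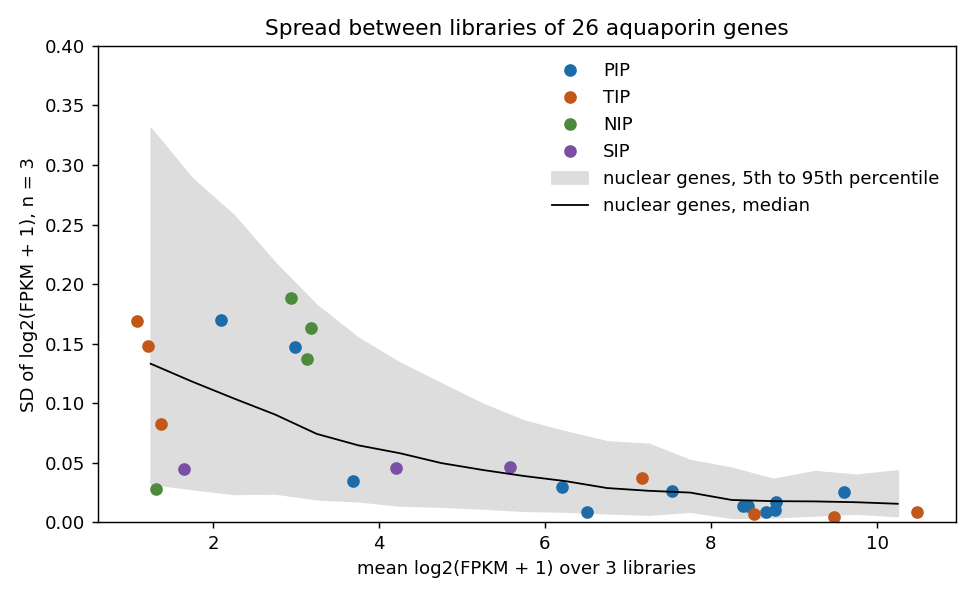
SD of log2(FPKM + 1) over 3 libraries against the mean level for 26 aquaporin genes at 1 FPKM or more. The band covers the 5th to 95th percentile of nuclear genes in steps of 0.5 log2 units and the line their median. NIP5-1 has the highest SD, 0.189, and TIP2-1 the lowest, 0.0043.

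Most of the genes listed here as acting beside aquaporins were detected, as were 63.0% of nuclear genes. All 8 genes of PIP traffic and regulation were detected. The syntaxins SYP61 and SYP121 had 23.5 ± 0.855 and 12.7 ± 0.834 FPKM. The membrane-anchored ubiquitin ligases RMA2, RMA1 and RMA3 had 63.8 ± 2.88, 21.2 ± 0.362 and 10.9 ± 1.59 FPKM, a family with a member in pepper that directs a PIP2 to breakdown. TSPO, which binds PIP2-7 and takes it to autophagy, had 3.24 ± 0.621 FPKM. The kinase OST1, which phosphorylates PIP2-1 in the abscisic acid response, had 12.0 ± 0.942 FPKM, and the receptor kinase SIRK1 had 9.65 ± 0.154 FPKM.

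All 4 genes of vacuolar proton pumps, which share their membrane with TIP proteins, were detected: the pyrophosphatase AVP1 at 303 ± 6.39 FPKM, VHA-A at 161 ± 1.32 FPKM, VHA-a3 at 65.9 ± 1.44 FPKM and VHA-a2 at 32.5 ± 0.594 FPKM. Of 3 boron exporters 2 were detected, against 63.0% of nuclear genes. BOR1, which loads boron into the xylem, had 14.2 ± 1.46 FPKM, BOR2 had 7.17 ± 0.315 FPKM and BOR4 had 0.135 ± 0.110 FPKM. NIP5-1 was below BOR1 with a log2 ratio of -0.98 ± 0.158, in 3 of 3 libraries.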

How the data were processed

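Per the labels' protocols, ribosomal RNA was removed from total RNA and directional libraries were sequenced. The authors deposited 1 FPKM value per gene and library. The unit is taken from Cufflinks, named in the submitters' processing notes with TopHat2 2.0.9, Cufflinks 2.1.1 and TAIR10, without roles. Neither the strand setting nor the handling of multiple matches is stated there.

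Library totals were found from genes with 1 annotated transcript. A gene's reads are those at the 1 length, between its shortest coding length and its exon union, that makes all libraries whole within 0.0001 reads plus 1e-09 of the reads. Such a single length was found for 30 of 35 members, PIP2-1, PIP1-4 and NIP7-1 allow several, and 2 have no reads. The recovery was tested on simulated data. With 1 group there was nothing for a count model to compare. Levels are mean ± SD over 3 libraries, ratios use log2(FPKM + 1), and the background is 27197 nuclear protein-coding genes. Coding identity comes from 1 MAFFT 7.526 alignment of each member's longest coding sequence. Computation used Python 3.11.15, pandas 2.3.3, scipy 1.17.1 and Biopython 1.88. All 35 members are named, and 34 carry their name in the RefSeq gene table of TAIR10.1, in which TIP3-2 is BETA-TIP. The files hold no coordinates. The window of 100 to 130 codons between boxes was set after the members' distances were seen. Members, lists and the 17 ratios were chosen with earlier results of these data known.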

Additional observations from a re-analysis of the deposited data

How the results depend on the processing

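Of 171 values recomputed under another setting, 127 stayed within the spread between libraries, or within 1.5 times for counts and for the median SD, 42 moved and 2 changed sign from a value larger than that spread. Both were the TIP level. One further ratio within its spread, NIP5-1 over NIP6-1, turned from -0.24 to 0.53 with FPKM multiplied by the longest annotated transcript length. The TIP level's log2 difference from the background became 3.40 with only genes at a mean of 1 FPKM or more and 1.44 with the mean over members, since the first leaves out the low TIP genes and the second gives the high ones more weight. The filter at 1 FPKM gave 2.12 for all aquaporins, 4.19 for PIP, -0.73 for NIP and 0.44 for SIP. The mean over members gave 1.62 for all aquaporins, 3.78 for PIP, -1.16 for NIP and 1.24 for SIP. A pseudocount of 0.1 gave 5.27 for PIP, -1.63 for TIP, -2.28 for NIP and 1.88 for SIP. With FPKM multiplied by the longest annotated transcript length, shares became 32.8% for PIP1, 26.3% for PIP2, 39.5% for TIP, 0.996% for SIP and 21.7% for TIP1-2. Log2 ratios of sums became -0.32 for PIP2 over PIP1, 0.58 for PIP over TIP and 1.13 for TIP1 over TIP2. These are not shares or ratios of reads, because annotated lengths can exceed those implied by the values. For PIP2-6 they were 2148 against 1245 bp, and for PIP1-2 1509 against 1326 bp. The median SD of members was 0.0155 at 10 FPKM or more, and 0.0184 to 0.0321 without one replicate, the lowest without replicate 4, where it was more than 1.5 times lower. Upper quartile scaling moved none of 6 values, and detected counts of aquaporins stayed at 25 or 26 without one replicate. The count was 29 at a threshold of 0.5 FPKM and 22 at 2 FPKM. No paired analysis was possible because there is 1 group. Genes with few reads, such as NIP4-2 and TIP5-1, are limited by depth.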
